A study of Astyanax mexicanus with 26 samples.

Results

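Acetylation of histone H3 at lysine 27 (H3K27ac) was compared between the adult livers of Tinaja cave fish and surface fish of Astyanax mexicanus, the Mexican tetra. All peaks of the Tinaja and surface H3K27ac lists were taken, 187214 of the 833231 peaks that the series lists for 3 morphs and 3 histone marks. Overlapping or touching peaks were merged, which gave 128368 regions. Each region was classed by its peaks as Tinaja only, surface only or both.

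The Tinaja list stands for 3 H3K27ac libraries (1934_b, 2005_A and 2005_B) and the surface list for 2 (1930_1 and 1930_2), together 5 of the 26 libraries of the series. Per the labels, the following steps were the same in both morphs. Livers of adult fish were fixed for 15 min in 1% formaldehyde. Chromatin of 200000 cells was precipitated with 1 µg of the antibody ab4729, and single reads of 50 bases were sequenced. The named background was a total chromatin library, Tinaja_tc_1934 for Tinaja and Surface_tc_1930 for surface. No total chromatin library carries the number 2005 of Tinaja libraries 2005_A and 2005_B, whereas both surface libraries have one of their own number. The lists of H3K4me3 and H3K27me3 in the same morphs, and of all 3 marks in Pachón cave fish, served as annotation. Surface fish live in rivers with light, and the Tinaja and Pachón fish are eyeless cave forms named after their caves. The labels do not say whether libraries of a morph came from separate animals. The library numbers differ between the morphs, 1930 in surface against 1934 and 2005 in Tinaja, so morph and library number cannot be told apart.

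H3K27ac is laid down by the acetyltransferases p300 and CBP and marks active enhancers and promoters. H3K4me3 marks the start sites of genes, active or poised. H3K27me3, the mark of the Polycomb complex PRC2, covers genes that are held silent, and it sits on the same lysine as H3K27ac, so 1 histone tail cannot carry both. A liver holds hepatocytes together with bile duct, endothelial, stellate and immune cells, and peaks from whole liver mix them. Fewer cells of a type and less of a mark per cell cannot be told apart in such lists. The labelled tissue could not be checked against marker genes, because the lists name no genes and the gene table at hand belongs to another assembly, AstMex3_surface. On 22 of the 25 placed chromosomes the last peak and the last gene lay more than 10% apart. Regions are therefore given by position in the build of the lists, counted from 1, without genes or sequence; no source used here names that build.

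Every value below comes from 1 pooled list per morph. There is no replicate to set a difference against, so differences were not tested and are described only. Intervals in brackets are exact binomial 95% intervals and cover counting error only. The reads behind each list are not known, and a region without a peak is one without a listed peak.

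The Tinaja list was the longer, with 117125 peaks covering 67.4 Mb against 70089 peaks covering 43.7 Mb in surface. Its peaks were narrower, with a median width of 459 bp against 511 bp. Peaks at the 10th and 90th percentile of width measured 282 and 1006 bp in Tinaja and 296 and 1083 bp in surface, and the widest measured 6490 and 6568 bp. The lists thus ended at nearly the same widest peak, but Tinaja held more wide peaks as well as more narrow ones. The 7008 widest peaks measured 1202 bp or more in Tinaja and 1083 bp or more in surface. The Pachón list, from 2 libraries, fell between them with 93527 peaks.

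Far more regions were Tinaja only than surface only. Of the 128368 regions, 60343 were Tinaja only, which is 47.0% (46.7 to 47.3%), and 12701 were surface only, which is 9.89% (9.73 to 10.1%). The remaining 55324 regions, 43.1%, held peaks of both morphs. Regions of a single morph were narrow, with medians of 373 bp for Tinaja only and 361 bp for surface only, against 687 bp for both. Regions of both therefore covered 45.1 Mb, more than the 25.7 Mb of Tinaja only and the 5.20 Mb of surface only together.

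This order depended on the length of the lists. When the Tinaja list was shortened to its 70089 widest peaks, 26.6% of the 92698 regions were Tinaja only (24663) and 25.2% were surface only (23318). The shortening removed 47036 Tinaja peaks and left none narrower than 407 bp. The surface list kept all its narrow peaks, and Tinaja still covered more, 52.4 Mb against 43.7 Mb. Surface only then also held regions whose Tinaja peaks had been left out. With the Tinaja list shortened further, to 50816 peaks that cover as much as the surface list, the order turned to 13907 Tinaja only and 31603 surface only. The split between the single classes thus moved with the point at which the Tinaja list was ended.

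**Figure D1:**
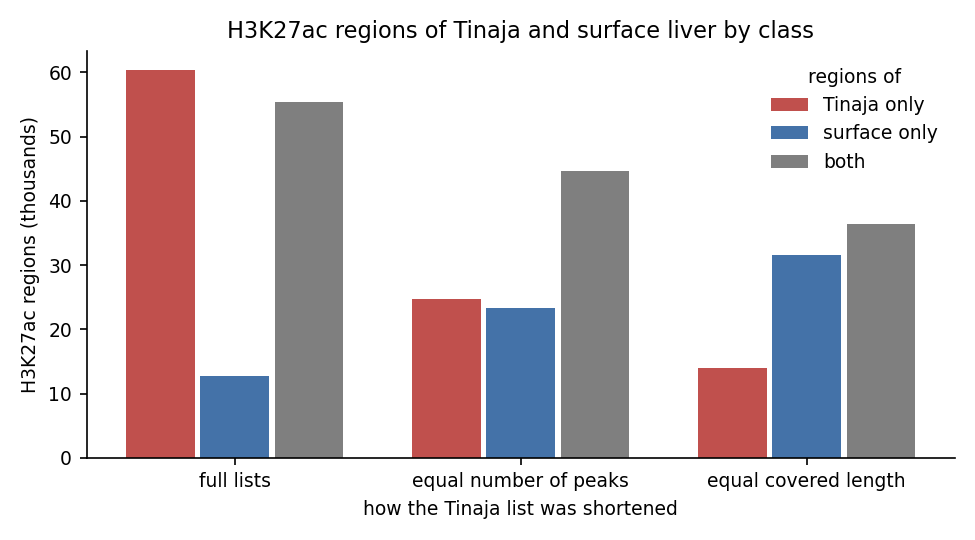
Number of H3K27ac regions, in units of 1000, in each class with the full lists, with the Tinaja list shortened to as many peaks as the surface list, and with it shortened to as many bases. Tinaja only falls from 60343 to 24663 and 13907 regions, while surface only rises from 12701 to 23318 and 31603.

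Counted from a common width, without regard to the length of the lists, Tinaja kept the larger number. Regions of 407 bp or more that met no peak of any width in the other list were counted. They numbered 24678 for Tinaja only and 4654 for surface only, which is 40.9% and 36.6% of these classes. The Tinaja list held at least 70089 peaks of 407 bp or more, and the surface list fewer, as its 70089 peaks start at 200 bp. The counts therefore also reflect the length of the lists. With peaks of 500 bp or more from each list, 21640 regions were Tinaja only, 6379 surface only and 29182 both. Here each single class also held regions that overlapped a narrower peak of the other list, which had been left out. In that setting 57.8% of Tinaja peaks and 82.4% of surface peaks met a peak of the other morph. The 1000 Tinaja peaks just inside the width limit (407 to 411 bp) met a surface peak in 39.3% of cases, and the 1000 just outside it (402 to 407 bp) in 33.2%.

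Most surface peaks had a Tinaja counterpart, whereas fewer Tinaja peaks had one in surface. Of surface peaks, 81.9% (81.6 to 82.2%) overlapped a Tinaja peak by 1 bp or more, and 48.5% (48.2 to 48.8%) of Tinaja peaks overlapped a surface peak. With lists of equal number these shares came close, at 66.7% and 64.8%. By bases, the morphs shared 35.1 Mb, which is 46.2% of the 76.0 Mb covered by either, 80.4% of the surface bases and 52.0% of the Tinaja bases.

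The share of peaks met rose with their width. In the narrowest 10% of the Tinaja list, 200 to 282 bp, 14.4% of peaks met a surface peak, and in the widest 10%, 1006 to 6490 bp, 91.5% did. In surface the shares ran from 54.0% in the narrowest 10%, 200 to 296 bp, to 98.5% in the widest, 1083 to 6568 bp. The widest peaks of liver H3K27ac were thus nearly all listed in both morphs, and the classes of a single morph were made up mostly of narrow peaks.

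**Figure D2:**
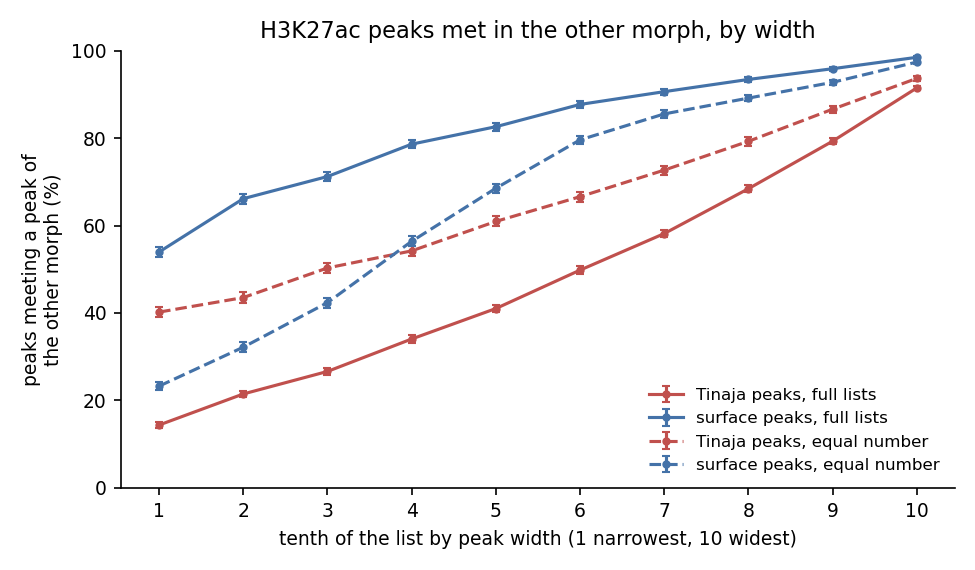
Share of H3K27ac peaks (%) that overlap a peak of the other morph, by 10% steps of each list's peak width, with 95% binomial bars. In the full lists the share rises from 14.4% to 91.5% for Tinaja peaks and from 54.0% to 98.5% for surface peaks.

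In regions of both morphs the Tinaja peaks were slightly the longer. The median log2 ratio of summed peak length, Tinaja over surface, was 0.10, with 25th and 75th percentiles of -0.09 and 0.33, and Tinaja was longer in 64.3% of the 55324 regions. A difference of 2-fold or more was rare, found towards Tinaja in 2012 regions (3.64%) and towards surface in 901 (1.63%). In 94.3% of these regions each morph had 1 peak, so the ratio mostly compares 1 peak with 1 peak.

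**Figure D3:**
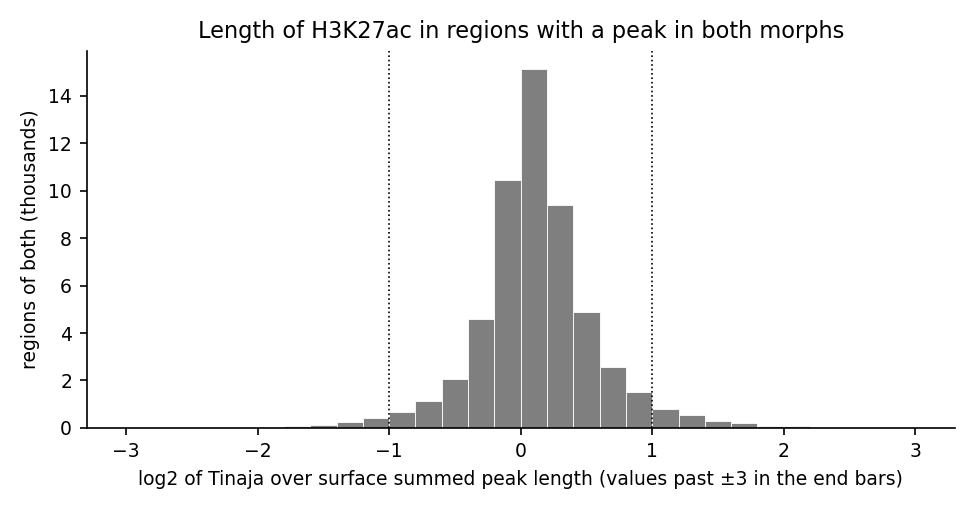
Number of regions of both, in units of 1000, by log2 of Tinaja over surface summed peak length, with dotted lines at 2-fold. The distribution centres at 0.10, and 3.64% of regions lie at or past the right line and 1.63% at or past the left.

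H3K27me3 was met far more often by Tinaja only than by the other classes. A peak of this Polycomb mark in Tinaja or surface liver was met by 39.5% (39.1 to 39.8%) of the regions of Tinaja only. Regions of surface only met one in 8.09% (7.63 to 8.58%) of cases and regions of both in 14.9% (14.7 to 15.2%). The H3K27me3 lists were of nearly equal length, 99370 peaks in Tinaja and 97948 in surface, and all their libraries carry the number 2399.

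The H3K27me3 at these regions was mostly listed in both morphs. Regions of Tinaja only met the Tinaja H3K27me3 list in 33.4% of cases, the surface list in 32.5% and the Pachón list in 32.1%. Of the 23809 such regions with H3K27me3 in Tinaja or surface, 15924 (66.9%) met a peak in both morphs, 4204 (17.7%) in Tinaja alone and 3681 (15.5%) in surface alone. These were thus places that carried a listed H3K27me3 peak in surface liver about as often as in Tinaja liver, and a listed H3K27ac peak in Tinaja alone of the pair. Regions of surface only differed from this with the full lists: of the 1028 with H3K27me3, 529 (51.5%) met it in surface alone, 349 in both morphs and 150 in Tinaja alone. With lists of equal number, 42.2% of the marked surface only regions met it in surface alone and 40.6% in both morphs. In that setting 73.4% of the marked Tinaja only regions met it in both morphs. The class of both resembled Tinaja only, with 60.5% of its marked regions meeting H3K27me3 in both morphs in the full lists.

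Most of the Tinaja only regions that met Tinaja H3K27me3 lay largely inside it. The median share of a region's length covered by the Tinaja H3K27me3 list was 100% among the Tinaja only regions that met it, and 71.6% of those were covered over 90% or more of their length. Among surface only regions that met the list, which are of similar width, the median was 89.2% and 48.3% were covered to that extent. Among the wider regions of both, the values were 77.0% and 31.1%. The lists come from many cells and from separate libraries for each mark, so whether both marks sit on the same chromosomes was not tested.

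The difference held within classes of width. Among regions of 200 to 299 bp, H3K27me3 of Tinaja or surface was met by 28.1% of Tinaja only, 5.87% of surface only and 5.21% of both. Among regions of 1000 bp and up, the shares were 56.2%, 15.2% and 13.2%. In each of the 6 width classes Tinaja only was the highest. With surface only and both weighted to the widths of Tinaja only, the shares were 8.32% and 11.5%.

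**Figure D4:**
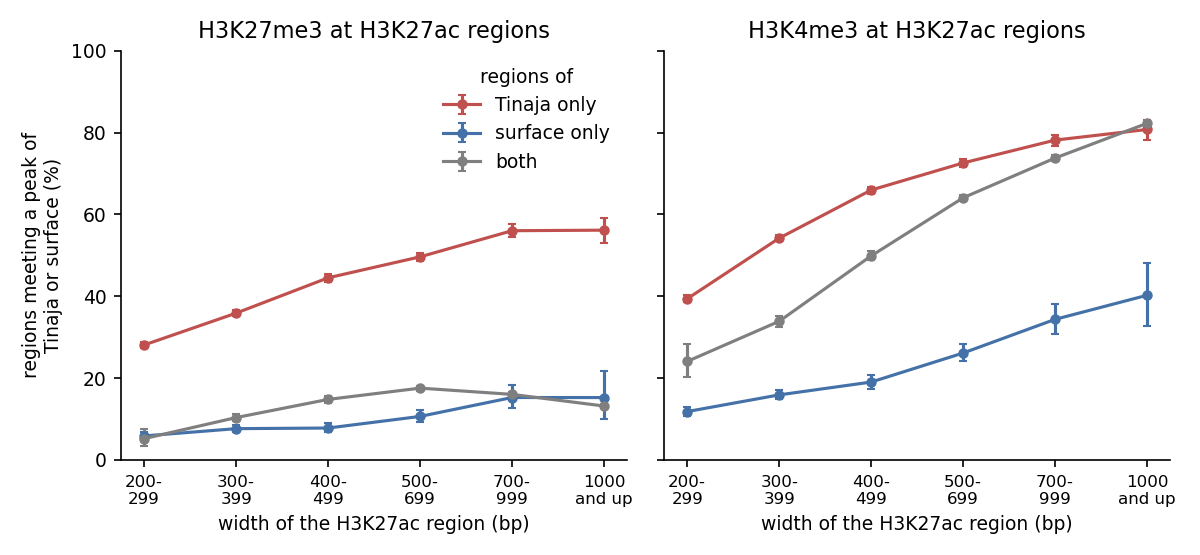
Share of H3K27ac regions (%) that meet an H3K27me3 peak (left) or an H3K4me3 peak (right) of Tinaja or surface, by region width in bp and class, with 95% binomial bars. For H3K27me3, Tinaja only runs from 28.1% to 56.2% and lies above both other classes at every width.

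It also held with shortened lists. With lists of equal number the shares were 48.9% in Tinaja only, 9.44% in surface only and 15.9% in both. In that setting 8853 Tinaja only regions and 893 surface only regions met H3K27me3 in both morphs, a ratio of 9.91. Regions without H3K27me3 in either morph ran the other way, with 12605 Tinaja only and 21116 surface only, a ratio of 0.597. With peaks of 500 bp or more from each list the ratios were 25.5 and 2.21, and with the full lists 45.6 and 3.13. The excess of Tinaja was thus larger at H3K27me3 in each setting, while its direction elsewhere changed with the setting. With lists of equal number, surface only also held regions whose Tinaja peaks had been left out. With peaks of 500 bp or more, each single class likewise held regions whose narrower peak in the other morph had been left out. Such a split was not particular to H3K27me3. By H3K4me3 in both morphs and in neither, the ratios were 2.61 and 0.416 with lists of equal number. With H3K4me3 lists of equal number as well, they were 6.86 and 0.650.

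Counted from the side of H3K27me3, 63774 merged regions of that mark were listed in both morphs. H3K27ac of Tinaja alone met 14982 of them (23.5%), of surface alone 351 (0.550%) and of both 5013 (7.86%). With H3K27ac lists of equal number, Tinaja alone met 13.3%, surface alone 1.42% and both 6.99%. For comparison, of the 45755 H3K4me3 regions listed in both morphs, Tinaja alone met 12.9%, surface alone 4.79% and both 48.8% with the same lists. H3K27ac of neither morph was listed at 78.3% of these H3K27me3 regions and at 33.5% of these H3K4me3 regions.

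H3K4me3, the mark of start sites, was met by more regions of Tinaja only than of surface only. A peak of Tinaja or surface H3K4me3 was met by 57.8% of Tinaja only, 18.0% of surface only and 65.6% of both. The order of Tinaja only and both depended on region width. Weighted to the widths of Tinaja only, the shares were 18.7% in surface only and 42.7% in both, each below Tinaja only. Among regions of 200 to 299 bp, Tinaja only, surface only and both met H3K4me3 in 39.4%, 11.8% and 24.1% of cases. Among regions of 1000 bp and up, the shares were 80.8%, 40.2% and 82.3%. The Tinaja H3K4me3 list is much the longer, with 136219 peaks against 56323, and the same library numbers as H3K27ac within each morph. Regions of Tinaja only met the Tinaja list in 57.4% of cases and the surface list in 16.0%, and regions of surface only met them in 9.59% and 14.4%. Each single class thus met its own morph's H3K4me3 more often than the other's, but with H3K27ac lists of equal number surface only met the Tinaja list more often, at 20.5% against 16.3%. The Tinaja H3K4me3 list was also shortened to its 56323 widest peaks, which left none narrower than 478 bp while surface kept its narrow ones. H3K4me3 of either morph was then met by 29.6% of Tinaja only, 15.2% of surface only and 50.3% of both.

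**Figure D5:**
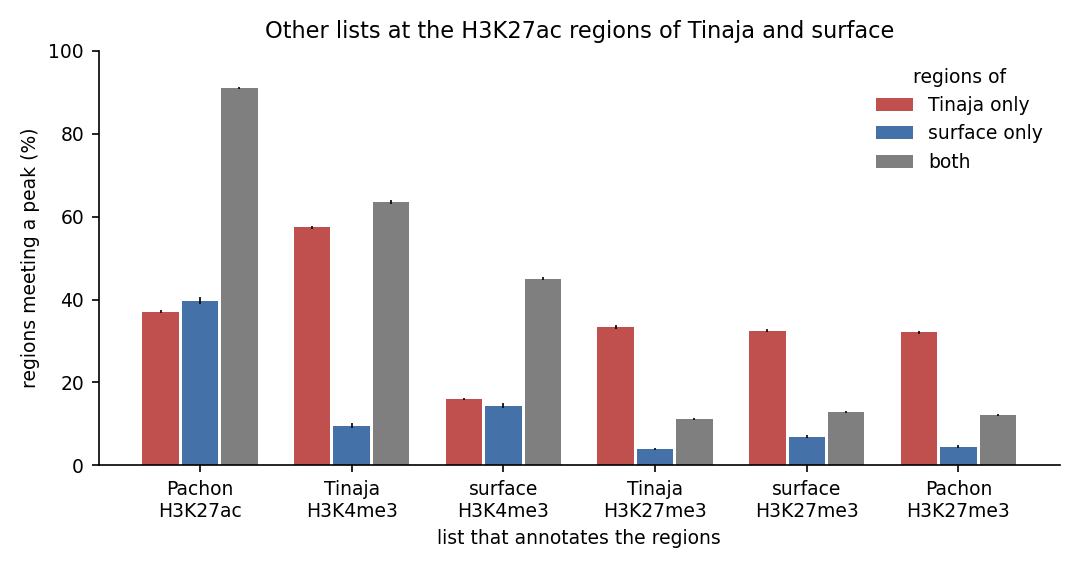
Share of H3K27ac regions of each class (%) that meet a peak of the list named on the axis, with 95% binomial bars. The lists are Pachón H3K27ac, Tinaja and surface H3K4me3, and H3K27me3 of all 3 morphs. The 3 H3K27me3 lists give Tinaja only 32.1 to 33.4%, surface only 3.93 to 6.91% and both 11.2 to 12.8%.

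Combined within the own morph, the marks gave the single classes different make-ups. Of Tinaja only regions, 35.8% carried H3K27ac alone, 30.8% H3K27ac with H3K4me3, 26.5% all 3 marks and 6.82% H3K27ac with H3K27me3. Surface only regions carried H3K27ac alone in 82.2% of cases, H3K4me3 besides in 10.9%, all 3 marks in 3.42% and H3K27me3 besides in 3.49%. Regions of both, read with the Tinaja lists, had H3K27ac alone in 34.9%, H3K4me3 besides in 53.9% and all 3 marks in 9.61%. Read with the surface lists, the shares were 49.3%, 37.9% and 7.11%. Surface only was therefore mainly acetylation without either other mark. The contrast was smaller with the Tinaja H3K4me3 list shortened to the length of the surface list, which drops Tinaja peaks under 478 bp alone. Tinaja only then had H3K27ac alone in 56.5%, H3K4me3 besides in 10.1%, all 3 marks in 15.6% and H3K27me3 besides in 17.7%. In that setting the share with H3K4me3 and no H3K27me3 was slightly below the 10.9% of surface only, and the shares with H3K27me3 stayed above those of surface only.

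H3K27me3 went with H3K4me3 in every class. In Tinaja only, 52.7% of the regions with H3K4me3 of either morph met H3K27me3, against 21.3% of those without. The shares were 26.5% and 4.04% in surface only and 19.3% and 6.60% in both. Tinaja only thus had the highest share on each side of this split, and with H3K4me3 lists of equal number as well. In every class, regions of 1000 bp and up met each mark more often than regions of 200 to 299 bp. The split was not made within classes of width, so width and H3K4me3 are not separated in it.

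Pachón H3K27ac, from the other cave morph, was met about as often by either single class. The share was 37.1% (36.7 to 37.4%) in Tinaja only and 39.7% (38.8 to 40.5%) in surface only, against 91.0% in both. With lists of equal number, where surface only also held regions whose Tinaja peaks had been left out, the shares were 45.9%, 55.9% and 94.8%. One Pachón H3K27ac library, 1934_b, carries a number of the Tinaja libraries and none carries a surface number.

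Regions of both with unequal length showed the same tendency for H3K27me3. The Tinaja H3K27me3 list was met by 23.1% of the regions at least 2-fold longer in Tinaja, 10.8% of those within 2-fold and 7.10% of those at least 2-fold longer in surface. The surface H3K27me3 list gave 25.9%, 12.3% and 9.10%. Pachón H3K27ac was met by 88.4%, 91.4% and 77.5%.

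Tinaja only regions stood farther from the other morph's peaks than surface only regions did, and more often in unbroken series than those. The nearest surface peak lay a median of 5.77 kb from a Tinaja only region, and the nearest Tinaja peak a median of 1.33 kb from a surface only region. With lists of equal number the medians were 6.13 and 1.97 kb. Series of 10 or more neighbouring regions of 1 class numbered 498 for Tinaja only, 1 for surface only and 176 for both. The classes made up 47.0%, 9.89% and 43.1% of all regions, and a class with a small share can form few such series. With lists of equal number the series numbered 33, 4 and 112, at class shares of 26.6%, 25.2% and 48.2%. The count for Tinaja only thus fell when the narrow peaks were left out and its share was smaller.

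The longest series of Tinaja only held 29 regions on chromosome 18, from 25251467 to 25388620, and 15 of them met surface H3K27me3 and 18 Tinaja H3K27me3. The next held 28 regions on chromosome 1, from 7432883 to 7609386, of which 1 met Pachón H3K27ac and 15 met Tinaja H3K27me3. The surface only series of 11 regions lay on chromosome 19, from 11059138 to 11111706, and 4 of its regions met Tinaja H3K27me3, 1 surface H3K27me3 and 2 Pachón H3K27me3. The longest series of both held 30 regions on chromosome 20, from 1781902 to 1831110, and none of these met H3K27me3 of any morph, while 30 of 30 met Pachón H3K27ac. These are single series and do not stand for their classes. With lists of equal number, a series of both on chromosome 19 held 19 regions, of which 5 met Tinaja H3K27me3. A surface only series of 9 regions on chromosome 18, from the full lists, held 1 such region. Over all regions, Tinaja H3K27me3 was met by 33.4% of Tinaja only, 3.93% of surface only and 11.2% of both.

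The classes were spread over all chromosomes. Tinaja only made up between 41.9% (chromosome 11) and 49.1% (chromosome 20) of the regions of a placed chromosome, and 50.2% on unplaced scaffolds. Surface only ranged from 8.41% (chromosome 15) to 12.1% (chromosome 11). The shares over all regions were 47.0% and 9.89%.

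Of 4671 windows of 100 kb with 8 or more regions, 2010 had Tinaja only as at least 50% of their regions and 29 had surface only at that share, and 36 held Tinaja only regions alone. These counts are from the full lists, where Tinaja only made up 47.0% and surface only 9.89% of all regions. A class with a larger share reaches 50% in more windows, so whether either class clusters was not tested. The window on chromosome 1 from 7500001 to 7600000 held 22 regions, all Tinaja only, of which 9 met surface H3K27me3. On chromosome 13, the window from 30100001 to 30200000 held 15 regions, all Tinaja only, of which 12 met Pachón H3K27ac and 1 met surface H3K27me3. The richest windows of Tinaja only thus differed in their H3K27me3. The window highest in surface only, on chromosome 18 from 8300001 to 8400000, had 6 of 8 regions in that class and no H3K27me3 of any morph, and 4 of the 8 met Pachón H3K27ac. Other windows high in surface only did hold the mark: on chromosome 5 from 38700001 to 38800000, 7 of 11 regions were surface only, and 3 of the 11 met Tinaja, 6 surface and 4 Pachón H3K27me3.

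The 8 longest Tinaja only regions on placed chromosomes measured 2286 to 3261 bp, and 4 of them were covered by H3K27me3 of all 3 morphs over more than 2000 bp. The longest, on chromosome 20 from 7940632 to 7943892, carried Tinaja H3K4me3 over its 3261 bp, surface H3K4me3 over 2849 bp and no H3K27me3. The region on chromosome 3 from 70623894 to 70626837 was covered over its whole 2944 bp by H3K27me3 in Tinaja, surface and Pachón, and by H3K4me3 over 2944 bp in Tinaja and 2903 bp in surface. On chromosome 13, the region from 26085460 to 26088326 carried neither mark in any morph, and Pachón H3K27ac covered 2423 of its 2867 bp. These 3 regions, all without a surface H3K27ac peak, differed in the other marks they carried. They were picked from the 8 longest and do not stand for the class of Tinaja only. Among all Tinaja only regions of 1000 bp and up, 49.8% met the Tinaja, 51.2% the surface and 48.6% the Pachón H3K27me3 list. The 4 of 8 covered by the mark are thus near the share for wide regions of this class.

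The 8 longest surface only regions measured 1712 to 2637 bp. The longest, on chromosome 24 from 44031268 to 44033904, was also marked by the other surface lists, H3K27me3 over 2632 bp and H3K4me3 over 2346 bp, and the Tinaja lists held 0 bp and 287 bp there. The second, on chromosome 17 from 5095539 to 5097998, was covered over its 2460 bp by Pachón H3K27ac and Pachón H3K4me3, and held surface H3K4me3 over 1851 bp and no Tinaja peak of the 3 marks. At the longest and the second, the Tinaja lists lacked, or nearly lacked, the other marks as well as H3K27ac. Others of the 8 differed. On chromosome 19 from 9691933 to 9693717, H3K27me3 covered 1785 bp in surface and 565 bp in Tinaja. On chromosome 8 from 6159643 to 6161482, Tinaja H3K4me3 covered 294 bp, and surface had no peak of either other mark. On chromosome 14 from 28523871 to 28525821, neither other mark was listed in any morph.

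Among the 1148 regions of both with 2000 bp or more on the longer side, the highest ratio was on chromosome 20 from 16486886 to 16489213, where Tinaja had 2328 bp, surface 276 bp and Pachón 509 bp, a log2 ratio of 3.08. The lowest was on chromosome 14 from 3268997 to 3271760, with 435 bp in Tinaja, 2764 bp in surface and 994 bp in Pachón, a log2 ratio of -2.67. Of the 5 regions highest and the 5 lowest in this ratio, 1 met H3K27me3, on chromosome 20 from 19826305 to 19828356, where the mark covered 1747 bp in Tinaja and 320 bp in surface. The longest region of both, on chromosome 6 from 11862039 to 11869785, held 7384 bp of Tinaja and 6768 bp of surface peaks, and the 5 longest had log2 ratios between -0.03 and 0.25. These regions were chosen from the class of both by summed length over the lists, which favours regions long in each morph. Their ratios therefore do not describe the longest acetylated regions in general.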

How the data were processed

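For each mark in each morph the authors deposited a single list of peaks. Its start and end positions were used, and the deposited score of every peak is 0. Per the submitters' processing notes, bcl2fastq 2.20, Bowtie2, SAMtools and MACS2 were used. No source used here gives their settings, the genome build or how libraries were combined. Depth is unknown, so whether the longer Tinaja list reflects deeper or more libraries was not tested.

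Peaks were converted to positions counted from 1 and merged where they overlapped or touched, and a region met a list when it overlapped a peak by 1 bp or more. Lists were shortened by width, the only ranking the files allow. Alternatives were equal number, equal covered length, the wider 50%, peaks of 500 bp or more, 50% overlap of the shorter interval, merging up to 1 kb, and placed chromosomes. The members and lists were chosen with earlier results of these data known, and the split of the single classes by H3K27me3 was chosen after its values were seen. Regions named were the 8 longest of each single class, the 5 highest and 5 lowest length ratios with 2000 bp or more on the longer side, the 5 longest of both, and the 4 windows of 100 kb highest in each single class, on placed chromosomes, with the longest series added after their values were seen. Interval arithmetic was tested on simulated data (20 sets, 1600 peaks, 0 mismatches). Intervals were computed with SciPy 1.17.1 and NumPy 2.4.6 under Python 3.11.15, and plots with Matplotlib 3.10.9.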

Additional observations from a re-analysis of the deposited data

How the results depend on the processing

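No paired analysis was possible because each morph has 1 pooled list, and for the same reason leaving out a library was not run. Of 129 values under another setting, 102 moved by more than counting error or 1.5-fold in a count, and 27 did not. The median log2 length ratio, the only kind of value here that can change sign, stayed positive in every setting. Depth is unknown, and width stands in for the strength of a peak. Shortening the Tinaja list removes its narrow peaks and keeps those of surface, so surface only then takes in regions that had a Tinaja peak. Over all regions of a class, the order of the H3K27me3 shares, Tinaja only highest and surface only lowest, was the same under every setting named here. Within the narrowest and widest regions, surface only lay above regions of both by less than counting error. Among regions with H3K4me3 it lay above them by more than counting error, at 26.5% against 19.3% with full lists. The order of the counts of the single classes turned with equal covered length.

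With lists of equal number, the regions of Tinaja only, surface only and both numbered 24663, 23318 and 44717. In the same order, H3K27me3 was met by 48.9%, 9.44% and 15.9%, H3K4me3 by 71.2%, 26.7% and 72.3% and Pachón H3K27ac by 45.9%, 55.9% and 94.8%. Tinaja peaks were met in 64.8% and surface peaks in 66.7% of cases, and the median log2 length ratio was 0.13.
With equal covered length, the regions of Tinaja only, surface only and both numbered 13907, 31603 and 36448. In the same order, H3K27me3 was met by 51.8%, 10.9% and 16.0%, H3K4me3 by 74.8%, 34.1% and 76.3% and Pachón H3K27ac by 48.4%, 64.4% and 96.2%. Tinaja peaks were met in 72.6% and surface peaks in 54.9% of cases, and the median log2 length ratio was 0.14.
With the wider 50% of each list, the regions of Tinaja only, surface only and both numbered 28486, 4826 and 29550. In the same order, H3K27me3 was met by 40.4%, 11.9% and 13.5%, H3K4me3 by 69.9%, 37.6% and 78.4% and Pachón H3K27ac by 63.5%, 67.1% and 97.4%. Tinaja peaks were met in 51.4% and surface peaks in 86.2% of cases, and the median log2 length ratio was 0.069.
With peaks of 500 bp or more, the regions of Tinaja only, surface only and both numbered 21640, 6379 and 29182. In the same order, H3K27me3 was met by 42.5%, 11.7% and 13.7%, H3K4me3 by 71.3%, 40.5% and 79.0% and Pachón H3K27ac by 63.0%, 71.3% and 97.6%. Tinaja peaks were met in 57.8% and surface peaks in 82.4% of cases, and the median log2 length ratio was 0.080.
With peaks up to 1 kb apart merged, the regions of Tinaja only, surface only and both numbered 45308, 6386 and 42155. In the same order, H3K27me3 was met by 44.8%, 12.9% and 21.1%, H3K4me3 by 62.4%, 20.7% and 73.4% and Pachón H3K27ac by 36.0%, 38.3% and 91.8%. Here the peak shares count all peaks lying in regions of both, overlapping or not, and were 57.1% for Tinaja and 90.1% for surface. The median log2 length ratio was 0.14.
On placed chromosomes, the regions of Tinaja only, surface only and both numbered 43737, 9649 and 41889. In the same order, H3K27me3 was met by 38.6%, 7.46% and 14.5%, H3K4me3 by 56.6%, 16.4% and 64.8% and Pachón H3K27ac by 38.5%, 39.9% and 91.4%. Tinaja peaks were met in 49.6% and surface peaks in 81.8% of cases, and the median log2 length ratio was 0.094.
With overlap of 50% of the shorter interval, 81.5% of surface peaks were met, and the other values stayed within counting error or 1.5-fold.

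The remaining settings were added after the data were seen. With H3K4me3 lists of equal number, H3K4me3 was met by 29.6%, 15.2% and 50.3%. Only the Tinaja list loses its narrow H3K4me3 peaks here, those under 478 bp. In that setting H3K27ac alone, H3K27ac with H3K4me3, all 3 marks and H3K27ac with H3K27me3 made up 56.5%, 10.1%, 15.6% and 17.7% of Tinaja only and, read with the Tinaja lists, 55.4%, 33.4%, 6.65% and 4.55% of both. H3K27me3 was met by 62.0%, 26.8% and 19.3% of the regions with H3K4me3 and by 30.0%, 4.75% and 10.5% of those without. Weighted to the widths of Tinaja only, regions of both met H3K27me3 in 11.5%, H3K4me3 in 42.7% and Pachón H3K27ac in 77.4% of cases. Of the Tinaja peaks of 407 bp or more, 24678 met no surface peak of any width. These made up 40.9% of the Tinaja only regions of the full lists.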
